A study of Mus musculus with 3 samples.

Results

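Expression of 10 genes of the intermediate filament family was followed in sorted cells of mouse embryonic dorsal root ganglia: Nefl, Nefm, Nefh, Prph, Ina, Vim, Nes, Lmna, Lmnb1 and Lmnb2. They were chosen by name, and all 10 were found among the 41388 deposited genes. The ganglia, which hold the sensory neurons that run from the body wall and limbs to the spinal cord, were taken from C57BL/6 embryos with a Ret-EGFP reporter at 14.5 days post coitum, between T11 and S1. The genotype label writes the reporter as Tg(Ret-EGFP)SJ, whereas the series text describes EGFP placed at the Ret locus of heterozygotes. Cells were sorted by fluorescence, and every library comes from such sorted cells, so there is no unsorted, EGFP-negative or wild-type population to set beside them. The 3 libraries form 1 group: A (100 ganglia pooled from 5 embryos, 3 male and 2 female), B (100 ganglia from 6 embryos, 2 male and 4 female) and D (80 ganglia from 4 embryos, 3 male and 1 female). A library is thus a pool, and spread between libraries mixes differences between pools with technical noise.

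Intermediate filaments are rope-like polymers built from coiled-coil proteins that share a central rod. In neurons the light, medium and heavy neurofilament proteins (Nefl, Nefm and Nefh) assemble together with alpha-internexin (Ina) and, in peripheral neurons, peripherin (Prph). These filaments fill the axon and help set its calibre, and the heavy subunit is known for arriving late in development. Vimentin (Vim) and nestin (Nes) are filaments of progenitors, glia and mesenchyme, and vimentin also occurs in young neurons. The lamins (Lmna, Lmnb1 and Lmnb2) form the meshwork under the nuclear envelope.

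Libraries A, B and D held 20181558, 20355302 and 29061086 counted reads. Levels are given as TPM, computed from the deposited counts and gene lengths as reads per base scaled to the same sum in every library, which puts genes of different length on 1 scale within a library. The labelled tissue was checked by its defining markers: all 10 sensory neuron markers reached 1 TPM, with a median between 446 and 513 TPM over the libraries. Markers of other cell types were read beside them. Of those listed for each, 9 of 10 for Schwann and satellite glia, 6 of 8 for mesenchyme and pericytes, 1 of 5 for endothelium, 2 of 6 for macrophages, 5 of 6 for erythroid cells, 1 of 5 for skeletal muscle and 0 of 5 for spinal cord reached a mean of 1 TPM. Olig2, Mnx1 and Lbx1 of the spinal cord and Myog of muscle had no counts in any library. Library D stood apart from the other two. Over genes, the variance between libraries was 135 times counting error for A and D and 121 times for B and D, against 45.5 times for A and B. D also had the highest share of mitochondrial counts (1.72%, 1.14% and 2.75% in A, B and D) and the highest sum of the 6 erythroid markers (84.8, 74.8 and 304 TPM).

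Levels of the family ran from among the most abundant transcripts of these cells to near the limit of detection. Of the 10 genes, 5 averaged over 100 TPM and 9 at least 1 TPM, while 55.5% of 21397 protein coding genes reached 1 TPM. The neuronal filament genes Nefl, Nefm and Prph led, Vim and Ina followed, and Nes alone stayed below 1 TPM.

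**Figure D1:**
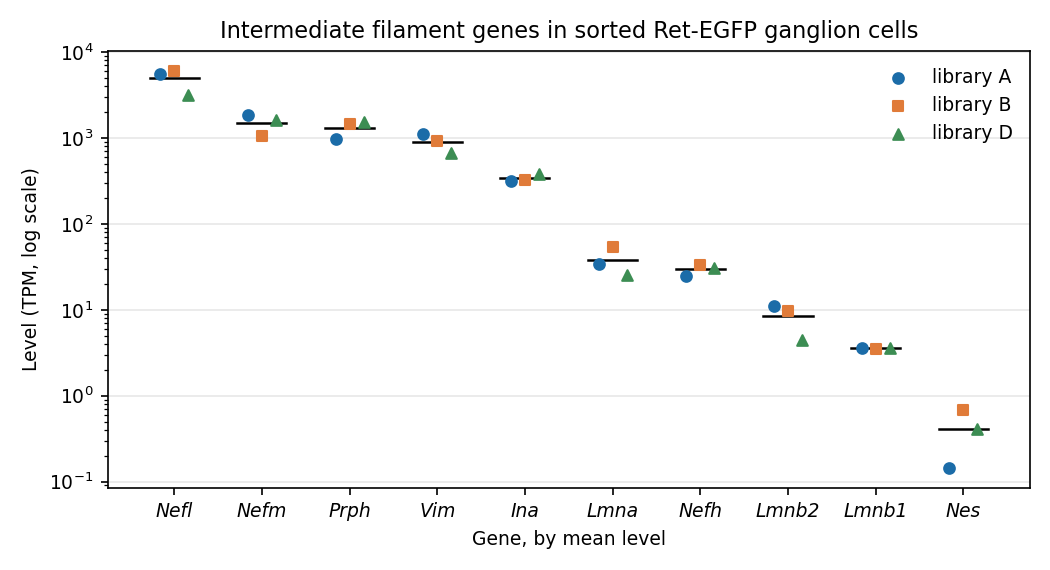
Level of each gene in libraries A, B and D (points, TPM on a log scale), with the mean as a horizontal line, ordered by mean level. Nefl stands highest in every library, and Nes stays below 1 TPM in every library.

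Nefl encodes the light subunit, the core on which neurofilaments assemble. The gene (ENSMUSG00000022055, chromosome 14, 68083863 to 68089095, plus strand, GRCm38.p2) was covered by 143471, 163711 and 136575 counts in libraries A, B and D. These gave 5598, 6082 and 3122 TPM in A, B and D. The level in D was the lowest, and the mean was 4934 ± 1588 TPM (SD, n = 3). Among coding genes Nefl ranked 13, 13 and 29 in A, B and D.

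Nefm encodes the medium subunit, whose long tail projects from the filament. The gene (ENSMUSG00000022054, chromosome 14, 68082590 to 68124846, minus strand) stood at 1827, 1056 and 1624 TPM in A, B and D. Here library B was the lowest, unlike for Nefl, and the mean was 1502 ± 400 TPM (SD, n = 3). Its counts were 80082, 48630 and 121529 in A, B and D.

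Nefl and Nefm lie side by side and, in the deposited annotation, share exon bases on opposite strands. A final exon of Nefm (68082590 to 68084970) covers 1108 of the 1147 bases of the first exon of Nefl, from 68083863 to 68084970. The shared bases make up 32.8% of the length used for Nefl and 19.2% of that used for Nefm. Whether reads were counted by strand is not given in the sources used here, so how reads of this stretch were assigned was not tested. The long Nefm exon, of 2381 bases, is 41.2% of the Nefm length, and it is absent from the transcript of Nefm that GENCODE marks as APPRIS principal. That transcript has 3334 bases, of which 2544 are coding, against 5782 bases used as the length of the gene. The other annotated Nefm transcript has 3680 bases, of which 1410 are coding.

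**Figure D2:**
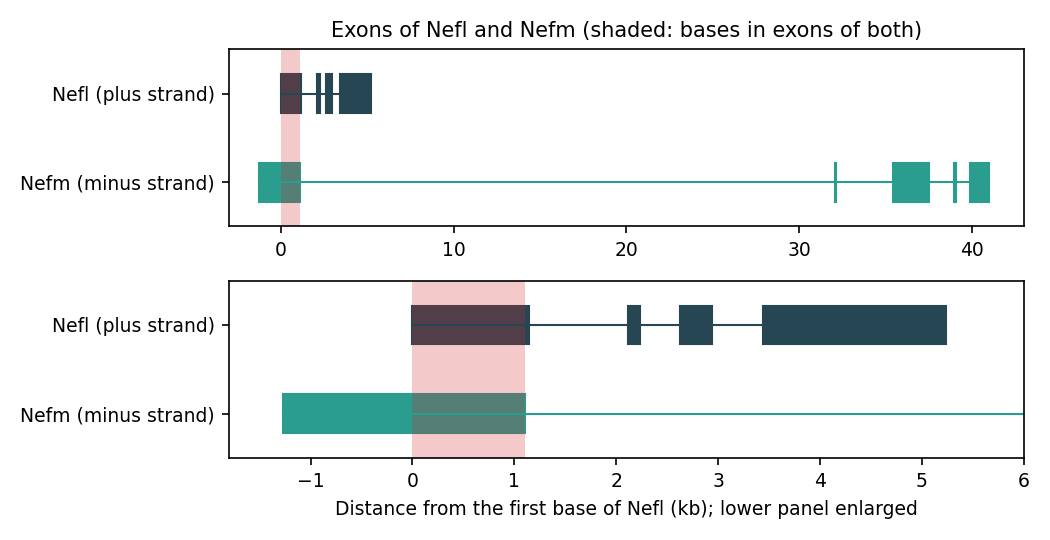
Deposited exons of Nefl and Nefm (boxes) on a scale of kilobases from the first base of Nefl, with the lower panel enlarging the region around Nefl. The shaded stretch of 1108 bases lies in exons of both genes.

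Within each library Nefm was lower than Nefl, but by amounts that differed between libraries. Nefl exceeded Nefm 3.06-fold, 5.76-fold and 1.92-fold in A, B and D. The log2 ratio of Nefm to Nefl was -1.69 ± 0.79 (SD, n = 3), below 0 in 3 of 3 libraries. The span between libraries was 3.00-fold. The mean log2 ratio was -0.90 with the length of the APPRIS principal transcripts and -0.92 as CPM, which has no length correction. It was -1.96 when only exon bases that no other gene shares were used as length. With each other length only the divisor changed, and all counts of a gene were kept. The direction was the same in every setting and the size was not. Over 11 pairs of members, each ratio had the same sign in 3 of 3 libraries. An exact permutation test that flips signs, two-sided, gave p = 0.25 for each (adjusted p = 0.25), the smallest that 3 libraries allow. No pair could therefore pass 0.05.

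Nefh encodes the heavy subunit, whose tail carries many phosphorylation sites and which becomes abundant as axons mature. The gene (ENSMUSG00000020396, chromosome 11, 4938754 to 4948064, minus strand) had 748, 1060 and 1581 counts in A, B and D. Its level was 24.7, 33.3 and 30.6 TPM in A, B and D, or 29.5 ± 4.41 TPM (SD, n = 3). In TPM the 3 libraries lay close together for this gene, with a coefficient of variation of 14.9%. In normalized log2 CPM they did not lie closer than for Nefl, with a range of 0.65 for Nefh and 0.63 for Nefl. With the trend of each library with gene length removed, these ranges were 1.07 for Nefh and 0.32 for Nefl. Nefl exceeded Nefh 227-fold, 182.5-fold and 102-fold in A, B and D. The log2 ratio of Nefh to Nefl was -7.34 ± 0.60 (SD, n = 3), or -8.10 per coding length. Here and below, per coding length means all counts of a gene divided by its coding length, with reads outside coding bases included. Against Nefm the log2 ratio of Nefh was -5.64 ± 0.62 (SD, n = 3); it was -6.44 with APPRIS principal transcript lengths and -6.54 per coding length. Of the summed TPM of the neurofilament triplet, Nefh contributed 0.332%, 0.465% and 0.640% in A, B and D.

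Markers of the sensory neuron classes that differ in axon calibre were read beside Nefh. All 9 markers listed for large sensory neurons reached 1 TPM, with a median of 34.8, 23.8 and 34.5 TPM in A, B and D. All 7 listed for small sensory neurons did as well, with a median of 47.7, 62.5 and 47.6 TPM in A, B and D. Both kinds of marker were thus present, and Nefh was at a level near the large-neuron median although its own order over the libraries differed from it. In bulk RNA, fewer cells of a type and less RNA per cell cannot be told apart.

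Prph encodes peripherin, a filament of peripheral neurons that can assemble with the neurofilament proteins. The gene (ENSMUSG00000023484, chromosome 15, 99055174 to 99058978, plus strand) stood at 970, 1447 and 1544 TPM in A, B and D, with a mean of 1320 ± 307 TPM (SD, n = 3). Library A was the lowest. Nefm and Prph, neighbours in the order of levels, changed places between libraries and did not differ beyond their spread (log2 ratio of Nefm to Prph 0.18 ± 0.69, SD, n = 3, above 0 in 2 of 3 libraries). Relative to Nefl, Prph stood at a log2 ratio of -1.87 ± 0.78 (SD, n = 3), which was -2.73 as CPM and -2.63 per coding length.

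Ina encodes alpha-internexin, a filament of early and central neurons. The gene (ENSMUSG00000034336, chromosome 19, 47014698 to 47025327, plus strand) stood at 316, 325 and 386 TPM in A, B and D, or 342 ± 38.1 TPM (SD, n = 3). In TPM the libraries lay within 1.22-fold of each other for Ina. The range of its normalized log2 CPM was 0.63, and 0.86 with the length trend removed. The first 456 bases of its exon are also covered by an exon of Nt5c2 on the opposite strand, 14.1% of the Ina length. Nt5c2, a nucleotidase gene, averaged 44.4 TPM. Prph exceeded Ina 3.07-fold, 4.46-fold and 4.00-fold in A, B and D. With a log2 ratio of 1.93 ± 0.28 (SD, n = 3) this pair was among the steadiest of the 11; the value was 1.13 as CPM and 1.11 per coding length.

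Together the 5 neuronal filament genes summed to 8736, 8943 and 6707 TPM in A, B and D. The sum varied 1.33-fold over the libraries, less than Nefl (1.95-fold), Nefm (1.73-fold) or Prph (1.59-fold) alone. Nefh alone varied about as much as the sum (1.35-fold), and Ina less (1.22-fold). Of this sum, Nefl took 64.1%, 68.0% and 46.6% in A, B and D. The share of Nefm was 20.9%, 11.8% and 24.2% in A, B and D, and that of Prph 11.1%, 16.2% and 23.0% in A, B and D. In D, Nefl therefore made up less of the pool, and both Nefm and Prph more, than in either other library. Library D is the one that stood apart in erythroid markers and mitochondrial share, and their part in this shift was not tested. Removing the length trend of each library changed the range of normalized log2 CPM from 0.63 to 0.32 for Nefl. For Nefm the range went from 0.95 to 1.32, and for Prph from 1.01 to 0.58. The part of gene length in the shift was not tested either. Without D the log2 ratio of Nefm to Nefl was -2.07. Ina took between 3.61% and 5.75%, and Nefh between 0.283% and 0.456%. With APPRIS principal transcript lengths the mean share of Nefl was 52.5 ± 11.8% and that of Nefm 28.6 ± 8.74%, against 59.6 ± 11.4% and 19.0 ± 6.43% with the deposited lengths (SD, n = 3 each).

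**Figure D3:**
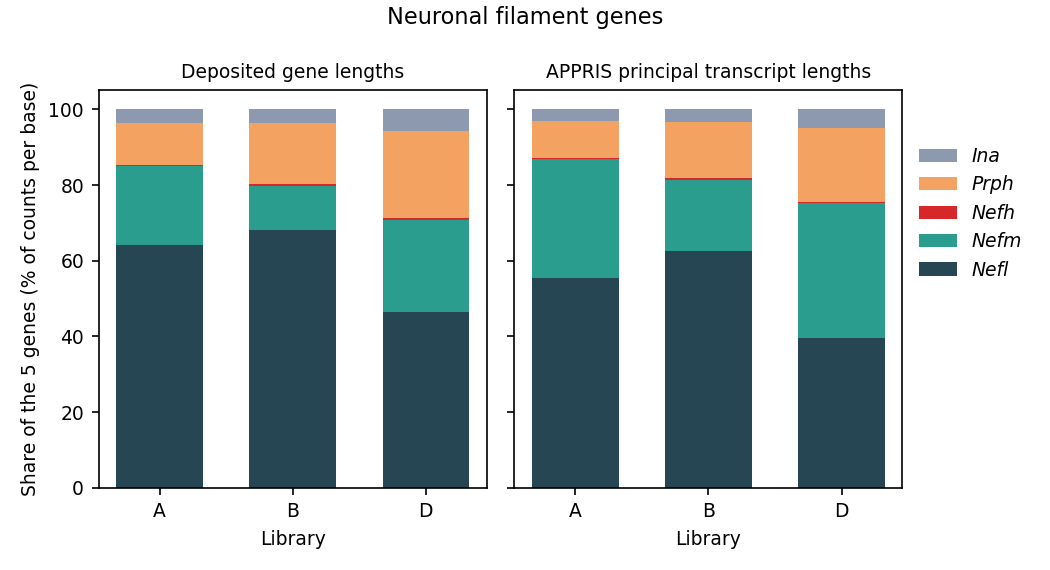
Share of each of the 5 neuronal filament genes in their summed counts per base, by library, with the deposited gene lengths (left) and APPRIS principal transcript lengths (right). Nefl is the largest share in every bar, it is smallest in library D, and Nefh is a thin line in all of them.

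Vim encodes vimentin. The gene (ENSMUSG00000026728, chromosome 2, 13573927 to 13582826, plus strand) stood at 1114, 911 and 663 TPM in A, B and D, with a mean of 896 ± 226 TPM (SD, n = 3). It ranked 101, 143 and 240 among coding genes, so vimentin RNA was itself abundant. Prph and Vim, neighbours in the order, did not differ beyond their spread (log2 ratio of Prph to Vim 0.56 ± 0.72, SD, n = 3, above 0 in 2 of 3 libraries). Vim was lower than Nefl by a log2 ratio of -2.43 ± 0.27 (SD, n = 3).

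Vimentin is also made by the other cells that ganglia hold, so their markers stand beside it. The 10 glial markers summed to 565, 889 and 952 TPM in A, B and D, the reverse of the order of Vim, and none was at 0 in all libraries. The 8 mesenchyme and pericyte markers summed to 19.2, 70.9 and 19.4 TPM in A, B and D, highest in B. The 5 endothelial markers summed to 4.52, 3.89 and 2.98 TPM, in the order of Vim, but Pecam1 made up most of that sum and their median (0.463, 0.187 and 0.388 TPM) had another order. The 6 macrophage markers summed to 7.34, 4.27 and 2.23 TPM, and their median (1.36, 0.716 and 0.242 TPM) had the order of Vim too. No marker of either list was at 0 in all libraries. Their part in the level of Vim was not tested.

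Nes encodes nestin, the filament used as a marker of neural progenitors. The gene (ENSMUSG00000004891, chromosome 3, 87971078 to 87980451, plus strand) had 7 counts in A (exact 95% Poisson interval 2.81 to 14.4), 35 in B (24.4 to 48.7) and 34 in D (23.5 to 47.5). These intervals cover counting error only. Its levels were 0.144, 0.685 and 0.410 TPM in A, B and D. Scaled to depth these were 0.347 CPM in A, 1.72 CPM in B and 1.17 CPM in D. Library A was the lowest, and the interval of its count did not reach those of B and D. Vim exceeded Nes 7739-fold, 1330-fold and 1618-fold in A, B and D, a log2 ratio of Nes to Vim of -11.32 ± 1.39 (SD, n = 3), which was -10.52 without library A and -9.86 as CPM. The glial markers given above also summed lowest in A, and their part in the level of Nes was not tested.

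RefSeq promoter windows, from 250 bases before to 50 bases after the start site, were matched for 6 members. They are shown for the abundant filament genes Prph, Ina and Vim and for Nes, at the other end of the order, in build GRCm38.p6. Nefl, Nefm, Nefh and Lmnb1 had no match. Capitals mark 3 motifs searched on both strands, which do not overlap in these windows. The TATA box was spelled TATAAA and stood in 13.6% of all 32851 windows of this length. The element bound by NF-Y was spelled CCAAT and stood in 37.4% of all windows. The GC box, known for binding Sp1 and its relatives, was spelled GGGCGG and stood in 35.7% of all windows. All 4 windows are on the plus strand.
Prph, chr15:99054924-99055223: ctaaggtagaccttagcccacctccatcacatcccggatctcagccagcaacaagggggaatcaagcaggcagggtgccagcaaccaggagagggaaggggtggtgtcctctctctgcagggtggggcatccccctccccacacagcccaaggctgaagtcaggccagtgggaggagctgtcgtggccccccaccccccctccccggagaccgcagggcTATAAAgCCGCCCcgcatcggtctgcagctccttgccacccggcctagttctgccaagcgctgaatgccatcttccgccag
Vim, chr2:13574061-13574360: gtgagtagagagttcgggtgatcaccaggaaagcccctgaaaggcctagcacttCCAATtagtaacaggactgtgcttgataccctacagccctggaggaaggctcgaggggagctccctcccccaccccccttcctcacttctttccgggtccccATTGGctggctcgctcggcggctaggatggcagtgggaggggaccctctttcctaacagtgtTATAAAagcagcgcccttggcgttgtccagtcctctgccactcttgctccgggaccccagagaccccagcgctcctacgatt
Ina, chr19:47014431-47014730: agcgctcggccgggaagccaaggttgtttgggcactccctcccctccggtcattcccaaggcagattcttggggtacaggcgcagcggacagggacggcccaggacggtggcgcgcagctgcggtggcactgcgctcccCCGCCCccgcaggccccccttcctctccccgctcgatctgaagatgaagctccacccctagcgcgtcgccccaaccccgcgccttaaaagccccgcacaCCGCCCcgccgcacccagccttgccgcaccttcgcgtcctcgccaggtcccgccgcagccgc
Nes, chr3:87970843-87971142: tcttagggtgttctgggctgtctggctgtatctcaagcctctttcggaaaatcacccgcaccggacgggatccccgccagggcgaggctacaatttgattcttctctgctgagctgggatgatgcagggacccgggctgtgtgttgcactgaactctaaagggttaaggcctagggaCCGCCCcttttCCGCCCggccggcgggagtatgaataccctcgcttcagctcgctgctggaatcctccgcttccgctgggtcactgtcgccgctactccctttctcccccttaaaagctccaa

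The windows of Prph and Vim each hold a TATAAA on the printed strand, beginning 31 and 32 bases before the start site. A TATAAA beginning between 36 and 24 bases before the start was found in 1.80% of all windows. The windows of Ina and Nes hold none of these letters, and each has 2 GC boxes. Vim has 2 CCAAT boxes and Prph, Ina and Nes have none. The GC content was 64.7% for Prph, 59.3% for Vim, 71.7% for Ina and 58.7% for Nes, against a median of 52.7% over all windows. A match describes the letters and is not evidence of a bound site.

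Each lamin gene stood below Nefl, Nefm, Prph and Ina in every library. Lmna encodes lamins A and C, which are known for being scarce in many neural cells and plentiful in stiff tissues. The gene (ENSMUSG00000028063, chromosome 3, 88481148 to 88509956, minus strand) stood at 34.5, 53.7 and 25.1 TPM in A, B and D, or 37.8 ± 14.6 TPM (SD, n = 3). Library B was the highest. Mesenchyme and pericyte markers, given above, also summed highest in B, and their part in the level of Lmna was not tested. Lmna and Nefh, neighbours in the order, did not differ beyond their spread (log2 ratio of Lmna to Nefh 0.29 ± 0.51, SD, n = 3, above 0 in 2 of 3 libraries).

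Lmnb2 and Lmnb1 encode the B-type lamins, which stay anchored to the inner nuclear membrane. Lmnb2 (ENSMUSG00000062075, chromosome 10, 80901203 to 80918245, minus strand) stood at 11.2, 9.70 and 4.40 TPM in A, B and D. It was lowest in D, with a mean of 8.42 ± 3.56 TPM (SD, n = 3). Lmnb1 (ENSMUSG00000024590, chromosome 18, 56707813 to 56753424, plus strand) stood at 3.61, 3.48 and 3.55 TPM in A, B and D. At 3.54 ± 0.0654 TPM (SD, n = 3) it had the smallest coefficient of variation of the 10 members, from only 81, 82 and 136 counts.

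Lmna thus led the lamins in each library. It made up 70.0%, 80.3% and 76.0% of their summed TPM in A, B and D. The log2 ratio of Lmna to Lmnb1 was 3.34 ± 0.57 (SD, n = 3) and that of Lmna to Lmnb2 was 2.20 ± 0.50 (SD, n = 3). Lmnb2 exceeded Lmnb1 3.10-fold, 2.79-fold and 1.24-fold in A, B and D, a log2 ratio of 1.14 ± 0.72 (SD, n = 3). Lamin B1 is known to fall in senescent cells, and cell cycle genes were read beside it. Of 9 cell cycle genes, 8 reached 1 TPM, and they summed to 82.8, 113 and 70.9 TPM in A, B and D. The counting intervals of Lmnb1 (64.3 to 101, 65.2 to 102 and 114 to 161 counts) are wide beside the differences between its levels, so no order of its libraries can be read.

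**Figure D4:**
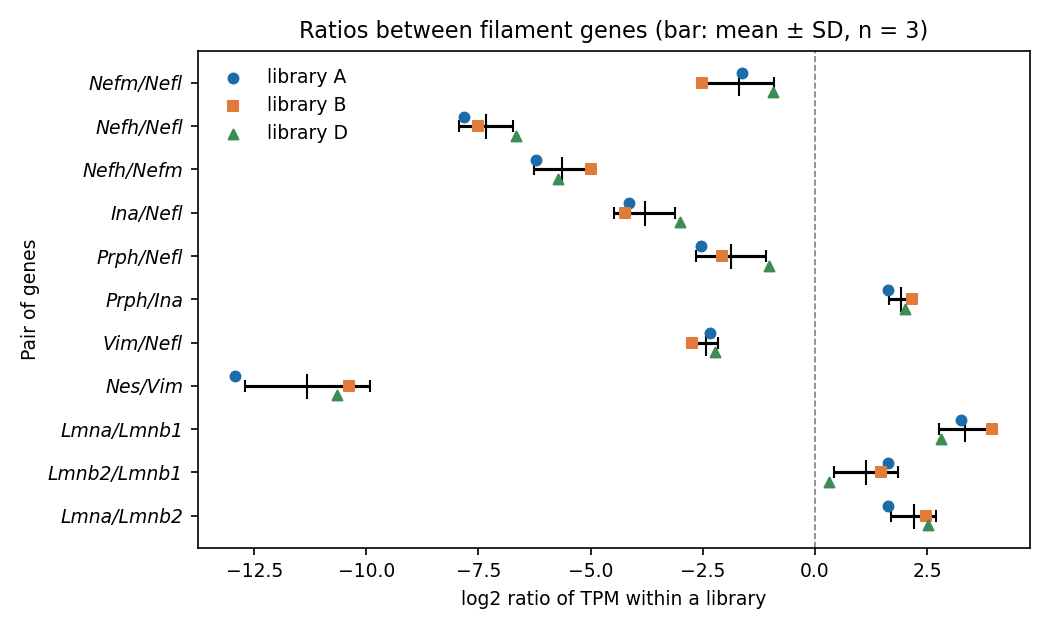
log2 ratio of TPM within each library (points) for 11 pairs of members, with the mean and SD over the 3 libraries (bar and whiskers). Each pair lies on 1 side of the dashed line of equality in all 3 libraries, and the spread is widest for Nes/Vim and narrowest for Vim/Nefl and Prph/Ina.

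Whether any member differed between the libraries by more than other genes of its level was tested with a goodness-of-fit test in edgeR. Of the 10 members, 9 passed the filter on low counts, and Nes did not. None of the 9 passed at an adjusted p of 0.05, while 24 of 13530 genes did (0.177%), and none had an unadjusted p under 0.05, against 6.11% of all genes. With the dispersion trend of DESeq2 in place of that of edgeR the members gave 0 calls as well, and 0 at an unadjusted p under 0.05. Over all 13530 genes that setting gave 24 calls, and 741 genes at an unadjusted p under 0.05. Prph came nearest, with log2 CPM of 9.40, 9.98 and 10.41 in A, B and D, followed by Nefm, with 11.94, 11.16 and 12.11 in A, B and D. Nefm alone reached an unadjusted p under 0.05 in any setting, without library D (adjusted p = 0.84, edgeR), where 700 of 13733 genes did. A p above the threshold does not show that levels were equal: the trended biological coefficient of variation was 26.9% at the level of Nefl. Coefficients of variation of TPM were 32.2% for Nefl, 26.6% for Nefm, 23.3% for Prph, 25.2% for Vim and 11.1% for Ina. Over coding genes of at least 10 TPM the median was 23.8%.

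The genes whose levels ran most nearly parallel to Nefl over the 3 libraries, among 1636 genes of at least 100 TPM, were Klhdc3 (SD of the log2 ratio to Nefl 0.0047), P4hb (0.018) and Vps4a (0.019). For Vim they were Gnl3l (0.0080), Pfkp (0.0084) and Exoc3 (0.011). P4hb encodes a protein disulfide isomerase, Vps4a an ATPase of membrane scission, Pfkp a phosphofructokinase and Exoc3 a subunit of the exocyst. With only 3 libraries such likeness is common: 47 genes had an SD under 0.1 to Nefl and 70 to Vim. Other members were less parallel to Nefl, from Lmnb2 (0.25), Vim (0.27) and Lmna (0.27) to Prph (0.78) and Nefm (0.79).

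Most other genes of the filament family were at low levels. Of 62 other genes, the keratins and the smaller classes, 15 reached 1 TPM and 18 had no counts in any library. The median was 0.0871, 0.0515 and 0.0712 TPM in A, B and D, against 2.17, 2.19 and 1.63 TPM for all coding genes. The highest were Krt222, an atypical keratin gene (29.3 ± 6.83 TPM), Krt10 (20.9 ± 5.41 TPM), Synm, which encodes synemin, a partner of vimentin and desmin filaments (19.2 ± 0.916 TPM), and Sync, which encodes syncoilin (6.58 ± 3.78 TPM; SD, n = 3 each). Krt25, Krt27, Tchp and Iffo1 lay between 3.58 and 5.40 TPM. Krt10 shares 146 exon bases and Sync 782 with other genes. Gfap, the filament of mature glia, had 0, 1 and 1 counts in A, B and D, and Des, the muscle filament, had 1, 2 and 4; both are named here after their values were seen. None of the 14 genes that passed the filter was called by edgeR, where 0.177% of all genes were, and 2 had an unadjusted p under 0.05, where 6.11% of all genes did.

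Genes that join filaments to other structures, modify them, move them or clear them were counted next. Of 5 plakins found in the files, large linkers between filaments, microtubules and junctions, 3 reached 1 TPM: Plec (30.8 ± 7.86 TPM), Dst (10.3 ± 3.58 TPM) and Macf1 (5.59 ± 1.59 TPM). All 12 genes for kinases and phosphatases acting on neurofilament tails did, led by Mapk3 (473 ± 59.0 TPM), Cdk5 (288 ± 11.7 TPM) and Gsk3b (220 ± 33.0 TPM). Their median was 27.5 ± 2.01 TPM, against 2.00 ± 0.315 TPM for all coding genes (SD, n = 3 each).

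All 8 transport genes reached 1 TPM, among them the dynein light chain gene Dynll1 (790 ± 247 TPM) and the kinesin genes Klc1 (465 ± 296 TPM), Kif5a (282 ± 136 TPM) and Kif5c (107 ± 36.3 TPM). Klc1 was uneven, at 516, 732 and 147 TPM in A, B and D (edgeR adjusted p = 0.28). Kif5a, known for carrying neurofilaments along axons, stood at 390, 326 and 130 TPM (edgeR adjusted p = 0.88), lowest in D, and Dynll1 at 623, 674 and 1073 TPM (edgeR adjusted p = 0.88), highest in D. All 9 turnover and chaperone genes did too, led by Hspb8 (143 ± 25.4 TPM), the ubiquitin ligase genes Stub1 (97.3 ± 45.7 TPM) and Trim2 (78.3 ± 34.4 TPM), and the RNA-binding gene Tardbp (40.2 ± 11.4 TPM).

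At the nuclear envelope, 9 of 11 partner genes of the lamina reached 1 TPM. Banf1, which ties chromatin to the lamina, stood far above the others at 715 ± 123 TPM, followed by Sun1 (19.0 ± 7.20 TPM), the lamin B receptor gene Lbr (15.8 ± 5.02 TPM) and the emerin gene Emd (15.3 ± 7.42 TPM). All 6 genes that process or bind the farnesylated tail of lamins did as well, led by Narf (106 ± 40.1 TPM), the farnesyltransferase genes Fnta (68.2 ± 29.5 TPM) and Fntb (55.3 ± 6.25 TPM), and Rce1 (51.5 ± 13.3 TPM; SD, n = 3 each). No gene of these 6 partner lists was called as varying between libraries by edgeR, of 46 tested, and 5 had an unadjusted p under 0.05. At a background of 0.177% called and 6.11% unadjusted, the absence of calls sets these lists apart in no way.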

How the data were processed

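The 3 pooled libraries of 1 group were compared only within themselves, by gene and by library. Libraries were made from 10 ng of total RNA with SMARTer amplification and 12 PCR cycles, per the labels' protocols, with no molecular identifiers recorded. The authors deposited counts, CPM and RPKM per gene, with exon coordinates and lengths; Subread, featureCounts 1.4.5 and GRCm38.p2 are named in the submitters' processing notes. The deposited counts were used, and the deposited CPM and RPKM values were recomputed from them as a check. TPM was computed from counts and deposited lengths. Deposited IDs were given symbols from GENCODE M21 (40254 of 41388). Variation of the counts between libraries was assessed by edgeR 4.0.16 (R 4.3.3), with these settings (TMM, filterByExpr, intercept only, trended dispersion, deviance against chi-square with 2 degrees of freedom, Benjamini-Hochberg over all genes, threshold 0.05), after a test on simulated data; DESeq2 1.42.0 gave an alternative trend. Ratios were tested with an exact sign-flip permutation test. Log2 CPM used a prior count of 2. The goodness-of-fit p-values measure only the spread between these libraries. The sign-flip p-values ask only whether a mean ratio within libraries differs from equality. Intervals cover counting error only. The members and lists were chosen with earlier results of these data known. Named genes are all members, up to 4 of the highest of each partner list (1 gene is not reported here), other filament genes of at least 1 TPM (at most 8), and the 3 genes most parallel to Nefl and to Vim. Ratios, filters, normalizations, lengths and left-out libraries were varied.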

Additional observations from a re-analysis of the deposited data

How the results depend on the processing

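All 88 alternative values of the 11 ratios had the direction reported, and 11 moved by over 1.5 times. Those not given above leave the order of the members in each pair as it was. Leaving a library out could not turn a direction, because each ratio had the same sign in every library. CPM or another length shifts a ratio equally in every library, so such a setting can move its mean but not its spread. Of the settings, unshared exon length, and the transcript and coding lengths of GENCODE were chosen after seeing the data. In these settings the counts of a gene were not restricted to the bases used as length. A coding length from RefSeq proteins was not run. No member was called as varying between libraries in any of 9 alternatives (lowest adjusted p = 0.84). The 24 genes called over all genes became 57 with the length trend of each library removed. With a library left out they became 7 without A, 2 without B and 27 without D. The cause was not tested. At a threshold of 5 TPM, 6 other intermediate filament genes and 4 lamina partners were counted, against 15 and 9 at 1 TPM. No comparison between groups, paired or not, was possible because there is 1 group. Depth limits Nes most, and Lmnb1 next.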
